A study of Homo sapiens with 6 samples.

Results

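The apolipoprotein L (APOL) genes form a small human gene family on chromosome 22, and 5 of them, APOL1, APOL2, APOL3, APOL4 and APOL6, were followed here in A498 cells, a line from a human kidney carcinoma. The members, matched by gene symbol, are 5 of the 61860 genes of the count table. They were chosen by the family they belong to and by this same comparison, whose fold changes were known when they were picked. Of the 5, 4 had enough counts to be tested, among 15476 tested genes, and APOL4 did not. The data are RNA sequencing counts from 6 libraries of A498 cells grown in MEM with serum: 3 control libraries (PTPRZ_nc) and 3 libraries with a knockdown of PTPRZ1 (PTPRZ_Si), a receptor protein tyrosine phosphatase. The labels give the same treatment entry, transfection infection, to both groups, but they name a plasmid for the controls and siRNA for the knockdown, so the knockdown and the means of delivery cannot be told apart. The labels do not say whether the 3 libraries of a group came from separate cultures, and a p-value then covers only how far these libraries vary, in part perhaps for technical reasons.

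APOL1 is the member with a signal peptide. It is secreted, circulates on high-density lipoprotein, and kills African trypanosomes by inserting into their membranes as an ion channel. Coding variants of APOL1 raise the risk of kidney disease, which is why the gene is studied in kidney cells. The other members lack the signal peptide and stay inside the cell, where APOL3 has been tied to Golgi membranes and to the lysis of bacteria in the cytosol. APOL1, APOL2, APOL3 and APOL6 are known to be induced by interferons, and APOL1 also by TNF and by double-stranded RNA sensed through TLR3.

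Total counts per library ran from 13726908 to 21469746. PTPRZ1 itself had 0 counts in each of the 6 libraries, controls included. For counting error only, this allows no more than 0.0607 CPM (counts relative to the library's total) in the controls taken as one. The knockdown could thus not be checked by its target, and every direction rests on the group labels. No PTPRZ1 transcript was counted in the controls that a knockdown could lower. Knockdown is here the name of the labelled group, and whether a loss of PTPRZ1 underlies any difference was not tested. RNF26, the other gene named in the series title and a ubiquitin ligase of the endoplasmic reticulum, went from 48.95 ± 0.94 to 41.1 ± 3.55 CPM (SD, n = 3 each, log2 fold change -0.25, edgeR adjusted p = 0.0128), and the call was lost without knockdown replicate 1 or 2 (adjusted p = 0.061 and 0.0697). All 9 listed markers of kidney tubule and clear cell carcinoma had at least 10 counts over the 6 libraries, and their summed level was 3040 to 3080 CPM in the controls and 3020 to 3140 CPM in the knockdown. That sum covers markers that moved apart: of the 8 that were tested, 5 were called higher and 2 lower. The kidney tubule transcription factor PAX8 rose from 313.2 ± 21.3 to 556 ± 22.4 CPM (0.83 on the log2 scale, edgeR adjusted p = 1.81e-09), and VIM, the intermediate filament vimentin, fell from 1181 ± 47.1 to 788.1 ± 28.9 CPM (-0.58, adjusted p = 8.69e-09). VIM and the keratin gene KRT8 (1198 CPM in the controls) made up most of the sum. In the controls CA9 stood at only 2.996 CPM and LHX1 at 2.062 CPM. NDUFA4L2, a marker of clear cell carcinoma on that list, had only 26 counts in all. Of other cell types, PTPRC and CD3E of leukocytes, CDH5 of endothelium and both erythroid markers were at 0. The 4 leukocyte markers summed to 0.107 to 0.35 CPM in the controls and 0.048 to 0.14 CPM in the knockdown. The 3 endothelial markers summed to 0.935 to 1.01 and 1.36 to 1.6 CPM. The 3 fibroblast markers, almost all of it COL1A1, summed to 31.4 to 41.7 and 21.6 to 23.6 CPM. The sum for leukocytes overlapped between the groups, and those for endothelium and fibroblasts did not. The part of any of these markers in the results was not tested.

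The family split in this comparison. APOL1 and APOL2, which lie side by side, were lower in every knockdown library than in any control, while APOL3 overlapped between groups, APOL6 was higher in each knockdown library than in any control, and APOL4 was hardly counted. Of the 4 tested members, 2 were called lower and 0 higher by edgeR's quasi-likelihood test with an adjusted p threshold of 0.05. Over all 15476 tested genes 27.4% were called, 13.4% lower and 14% higher. The median log2 fold change of the 4 tested members was -0.21, against 0 over all tested genes. Since this contrast chose them, the values of the members are a description and nothing is read from these counts.

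APOL1 (ENSG00000100342) lies on the plus strand of chromosome 22 from 36253010 to 36267530 (GRCh38, GENCODE 29, as for every position here). Its counts were 1228, 1276 and 1248 CPM in control replicates 1, 2 and 3, and 742.5, 730.7 and 724.9 CPM in knockdown replicates 1, 2 and 3. The 3 knockdown libraries were close together and far below the lowest control. The means were 1251 ± 24 and 732.7 ± 8.99 CPM (SD, n = 3 each), 1.71-fold lower in the knockdown, with a log2 fold change of -0.77 (SE 0.0331, 95% interval -0.84 to -0.7). The value rests on 103253 counted read pairs over the 6 libraries. Only 272 of the 15476 tested genes had a lower log2 fold change. In bulk RNA, fewer cells that make a transcript and less of it per cell cannot be told apart.

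APOL2 (ENSG00000128335, minus strand, 36226203 to 36239954), an intracellular member next to APOL1, had 215.4, 225.6 and 214.1 CPM in the controls and 149.9, 146.6 and 156.9 CPM in the knockdown. The groups again did not overlap. The means were 218.4 ± 6.3 and 151.1 ± 5.28 CPM, a log2 fold change of -0.53 (SE 0.0448, 95% interval -0.62 to -0.44), and 742 tested genes had a lower one. The fall was smaller than that of APOL1. In raw counts there were 5.7, 5.66 and 5.83 APOL1 read pairs for each APOL2 read pair among the controls, against 4.95, 4.99 and 4.62 with the knockdown, so the ratio of APOL1 to APOL2 was also lower in every knockdown library.

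APOL6 (ENSG00000221963, plus strand, 35648395 to 35668409), a member reported to promote cell death, had 191.3, 198.7 and 189.7 CPM in the controls and 209.6, 208.7 and 208.4 CPM in the knockdown. Every knockdown library was above every control, but the distance from the highest control to the lowest knockdown library was of the size of the spread among the controls. The means were 193.2 ± 4.78 and 208.9 ± 0.636 CPM, a log2 fold change of 0.11 (SE 0.0413, 95% interval 0.03 to 0.2). The gene sat just outside the threshold (edgeR adjusted p = 0.052). It was inside without control replicate 2 (log2 fold change 0.13, adjusted p = 0.0128). Over the 13 alternatives its log2 fold change ran from 0.1 to 0.13 and its adjusted p from 0.0128 to 0.165.

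APOL3 (ENSG00000128284, minus strand, 36140330 to 36166177), the member tied to the Golgi, had 23.07, 21.78 and 20.06 CPM in the controls and 26.21, 20.26 and 23.72 CPM in the knockdown. The groups overlapped. The means were 21.64 ± 1.51 and 23.4 ± 2.99 CPM, a log2 fold change of 0.11 (SE 0.0972) with a 95% interval from -0.1 to 0.31. That interval does not reach the values of APOL1 or APOL2. Its counts were 395, 298 and 376 among the controls and 376, 422 and 507 among the knockdown libraries, the fewest of the tested members.

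APOL4 (ENSG00000100336, minus strand, 36189124 to 36204840) had counts of 0, 0 and 1 among the controls and 1, 0 and 1 among the knockdown libraries, at most what a count of 0 allows in any library, so no fold was computed. APOL5 (35717872 to 35729483), which is no member, had 1 count in all. APOLD1, a more distant relative on chromosome 12 that is known from endothelial cells, had 3.329, 3.8 and 3.787 CPM in the controls and 6.204, 5.712 and 4.023 CPM in the knockdown. Its groups did not overlap either, and its log2 fold change was 0.53 (SE 0.196, 95% interval 0.12 to 0.95, edgeR adjusted p = 0.0521). It passed only without knockdown replicate 3 (0.71, adjusted p = 0.0184). Of the exon bases of APOLD1, 25.4% overlap exons of DDX47, so its counts are uncertain. The groups did not overlap for APOL1, APOL2 and APOL6, 3 of the 4 tested members, and for 40.8% of all tested genes.

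**Figure D1:**
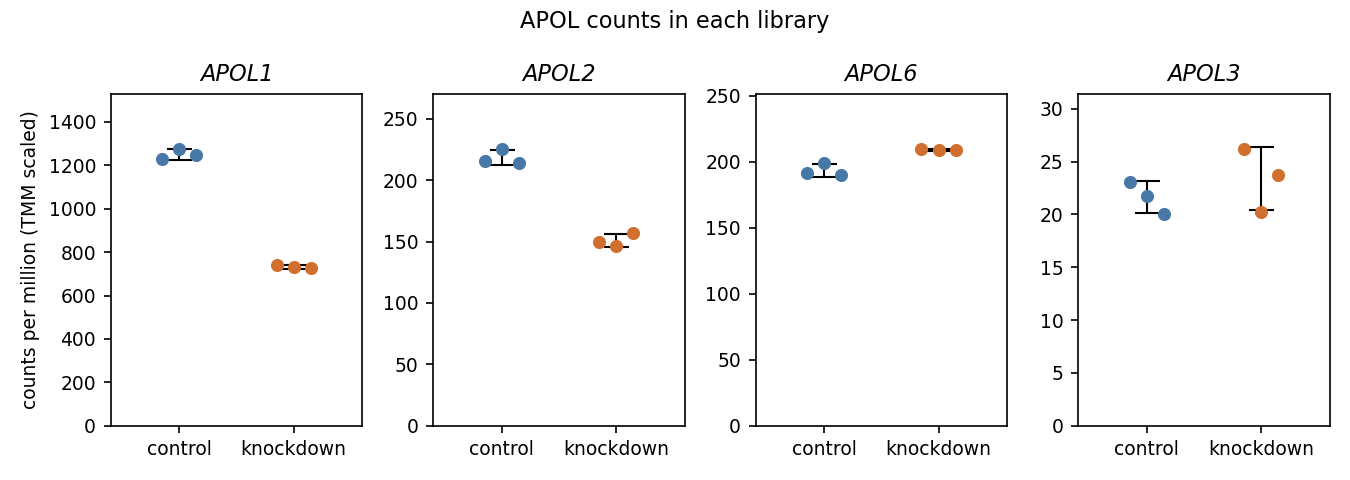
CPM, scaled by TMM, of 4 APOL members in each library (points), with the mean and SD of 3 libraries per group (bars). Each panel has its own axis from 0. The knockdown points of APOL1 lie between 724.9 and 742.5 against 1228 to 1276 in the controls, those of APOL2 lie below the controls, those of APOL6 lie just above them, and those of APOL3 overlap.

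**Figure D2:**
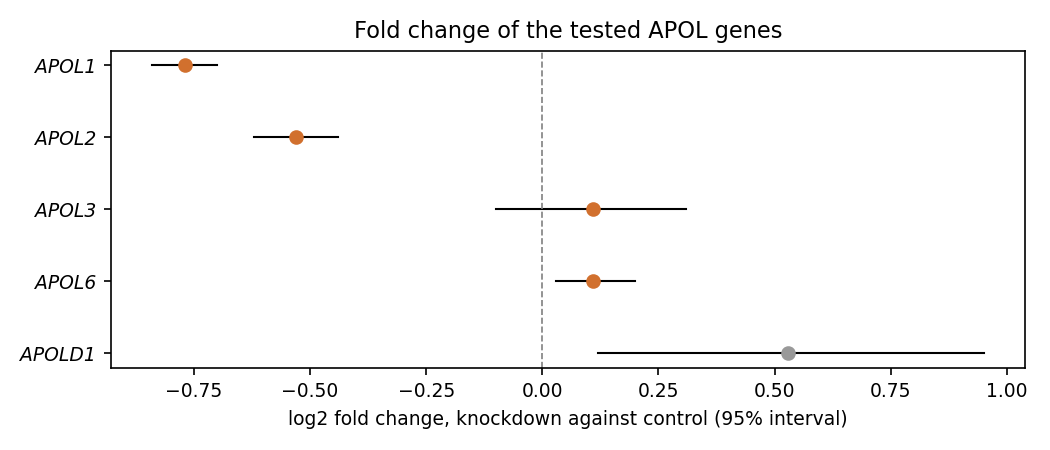
Log2 fold change of the tested APOL genes, knockdown against control, with its 95% interval (lines). APOL1 and APOL2 lie at -0.77 and -0.53, APOL3 and APOL6 both at 0.11, and APOLD1 (grey, no member) at 0.53 with the widest interval.

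APOL genes resemble one another, so it was checked how far reads could be placed. Of the 50-base words in the transcripts of APOL1, 0.608% also occur in another APOL gene, for APOL2 0.383% and for APOL3 0.14%, and for APOL4 and APOL6 0. The longest run shared by transcripts of APOL1 and APOL2 is 58 bases, and the same length is shared by APOL1 and APOL3. Words found in any other gene make up 3.94% of APOL1, 1.91% of APOL2 and 0.417% of APOL6. No exon of another gene overlaps the exons of APOL1, APOL2, APOL3, APOL4 or APOL6 in GENCODE 29. APOL1 has 12 annotated transcripts and APOL3 has 21, and the counts do not tell these apart.

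Per transcript length, APOL1 was by far the most abundant member. In TPM (length-scaled transcript shares, counts divided by the length of the merged exons), APOL1 stood at 1530, 1590 and 1570 in the controls, and at 925, 896 and 905 in the knockdown. In the controls it ranked 45 of 15257 tested genes with a length, above 99.7% of them. APOL2 followed with 276 ± 7.06 TPM in the controls and 189 ± 8.11 TPM in the knockdown (SD, n = 3 each). APOL6 had 84.1 ± 1.79 and 90.1 ± 0.959 TPM, and APOL3 16.1 ± 1.05 and 17.3 ± 2.35 TPM. The order APOL1, APOL2, APOL6, APOL3 held in both groups, with no overlap between neighbours. It depends on the length for one pair, because APOL6 has 10121 exon bases and only 1029 coding bases. With coding length, APOL6 stood above APOL2 in both groups (226 ± 4.36 against 195 ± 4.59 TPM in the controls, and 243 ± 3.46 against 134 ± 6.26 TPM in the knockdown), while APOL1 stayed first and APOL3 last.

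The 4 counted members summed to 1900, 1980 and 1940 TPM in the controls and to 1220, 1180 and 1210 TPM in the knockdown. Most of the difference was APOL1. Its share of the sum was 80.6% ± 0.27 in the controls and 75.4% ± 0.58 in the knockdown. The share of APOL2 was 14.2% ± 0.18 and 15.7% ± 0.55, so APOL2 held a slightly larger part of a smaller sum. The share of APOL6 was 4.33% ± 0.047 and 7.47% ± 0.057, and that of APOL3 0.832% ± 0.064 and 1.43% ± 0.17. With coding length, APOL1 held 73.2% and 63.8% and APOL6 13.7% and 22%.

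**Figure D3:**
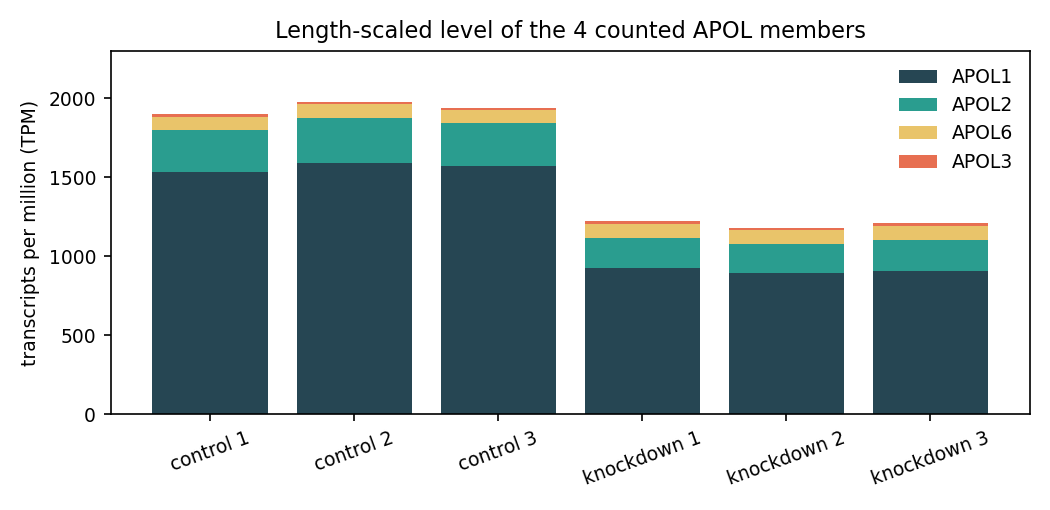
TPM of APOL1, APOL2, APOL6 and APOL3, stacked, in each of the 6 libraries (lengths of merged exons). The bars of the controls reach 1900 to 1980 and those of the knockdown 1180 to 1220, and APOL1 is the tallest segment in each.

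Ratios of raw counts within a library need no scaling between libraries. The ratio of APOL1 to APOL6 was 6.42, 6.42 and 6.58 among the controls and 3.54, 3.5 and 3.48 with the knockdown. APOL6 had fewer read pairs than APOL2 in each control (ratios of 0.888, 0.881 and 0.886) and more in each knockdown library (1.4, 1.42 and 1.33). The ratio of APOL6 to APOL3 overlapped between groups, at 8.29, 9.12 and 9.46 against 8, 10.3 and 8.79. By the root mean square difference of their centred log2(CPM + 1) values over the 6 libraries, APOL1 and APOL2 were 0.127 apart and APOL3 and APOL6 0.116 apart. The 4 distances between these pairs were 0.322 to 0.452.

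The position of the genes follows this split in part. APOL3, APOL4, APOL2 and APOL1 lie within 127 kb, and APOL6 lies 472 kb from APOL3. APOL2 and APOL1 are 13.1 kb apart, and 13.7 kb separates APOL1 from MYH9, which encodes the heavy chain of non-muscle myosin IIA. MYH9 had 2201, 2360 and 2152 CPM in the controls and 1765, 1714 and 1824 CPM in the knockdown. It fell by 0.34 on the log2 scale (SE 0.037, edgeR adjusted p = 2.64e-06), less than either APOL neighbour. APOL3, beyond APOL4 on the other side of APOL2, stood at 0.11.

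Within 1000 kb of the start of APOL1, 19 other genes were tested, of which 2 were called higher and 6 lower and 11 were not called. Their median log2 fold change was -0.12. HMOX1, which encodes heme oxygenase 1, rose from 161.9, 161.8 and 153.5 CPM to 278.7, 279.3 and 275.8 CPM (0.81 on the log2 scale, SE 0.0418, edgeR adjusted p = 4.64e-10). It was the largest rise in the window. IFT27, a small GTPase of intraflagellar transport, fell (-0.49, adjusted p = 8.17e-05 by edgeR), as did TXN2, the mitochondrial thioredoxin (-0.22, adjusted p = 0.00607). FOXRED2, a flavoprotein of the endoplasmic reticulum, rose (0.21, adjusted p = 0.00915). C1QTNF6, named after its value was seen, fell by 0.7 on the log2 scale (adjusted p = 7.68e-08).

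The other listed neighbours moved little or were too variable to call. MCM5, a subunit of the replicative helicase, was called lower (-0.16, edgeR adjusted p = 0.0136), but not without control replicate 1 (adjusted p = 0.072) or knockdown replicate 1 or 2 (0.067 and 0.0597). RBFOX2, a splicing factor between APOL6 and APOL3, had a log2 fold change of 0.27 with a 95% interval from -0.18 to 0.72, and passed without control replicate 3 (0.64, adjusted p = 0.0276). TOM1, of endosomal sorting, stood at 0 (95% interval -0.12 to 0.12), the small GTPase RASD2 at 0.05 (-0.11 to 0.21), myoglobin MB at -0.37 (-0.9 to 0.17) and the translation factor subunit EIF3D at -0.02 (-0.11 to 0.07). CACNG2 had 7 counts in all, and PVALB, NCF4 and CSF2RB had 0.

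**Figure D4:**
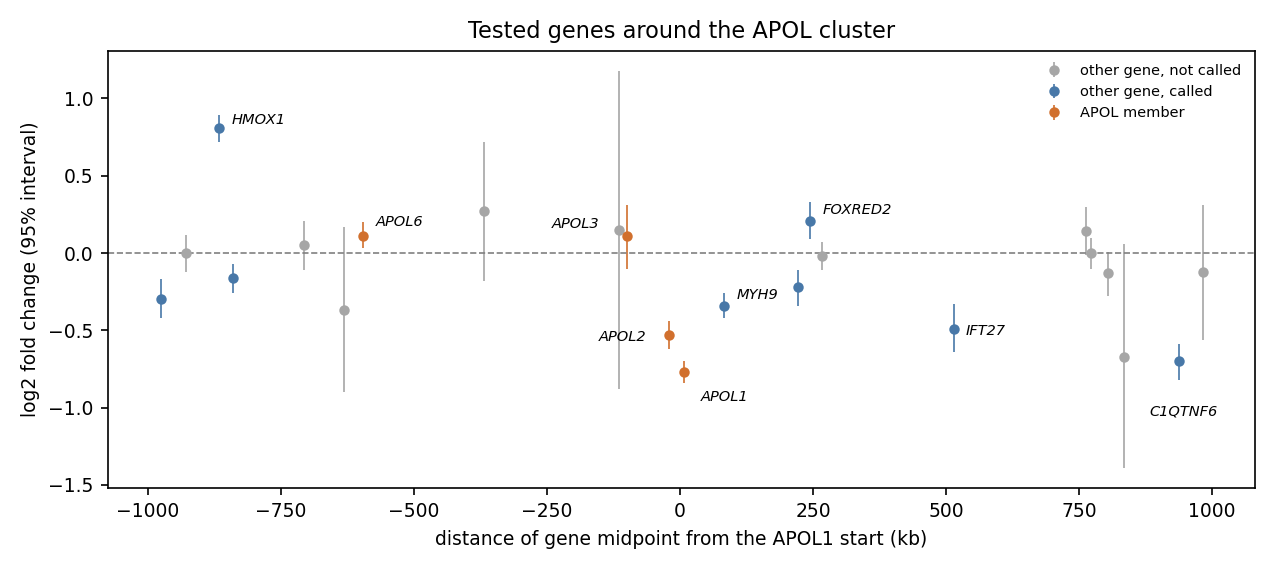
Log2 fold change with its 95% interval for each tested gene within 1000 kb of the APOL1 start, by distance of the gene's midpoint in kb. APOL1 (-0.77) and APOL2 (-0.53) lie lowest in the middle, APOL3 and APOL6 (both 0.11) lie near genes on either side of 0, and HMOX1 (0.81) is the highest point.

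Interferon signalling, the best known inducer of the APOL genes, was taken from a list of ligands, receptors, kinases and factors. Of 18 tested genes of 23 listed, 2 were called higher, 6 lower and 10 not, with a median log2 fold change of -0.15. Without knockdown replicate 2 or 3, 5 were called, 1 higher and 4 lower. Some receptor chains were lower. IFNGR2, a chain of the interferon-gamma receptor, went from 45.42 ± 2.21 to 32.36 ± 2.49 CPM (-0.49, SE 0.0727, edgeR adjusted p = 7.42e-05), and IFNAR1, a chain of the type I interferon receptor, from 118.2 ± 7.02 to 93.29 ± 2.52 CPM (-0.34, adjusted p = 0.000112). IFNGR1, the other chain of the interferon-gamma receptor, named after its value was seen, had a log2 fold change of 0.16 (adjusted p = 0.0446), and this call was lost when any library but control replicate 3 was left out (adjusted p = 0.061 to 0.157), and also with the replicate block (0.0676), with DESeq2 (0.0957) and with no filter on low counts (0.105).

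Inhibitors of the pathway moved in both directions. SOCS1, which blocks JAK kinases, had 14.37, 14.69 and 13.82 CPM in the controls and 30.11, 29.71 and 30.08 CPM in the knockdown. All 3 knockdown libraries were far above the controls, a rise of 1.07 on the log2 scale (SE 0.0792, edgeR adjusted p = 3.18e-08). USP18, which restrains type I receptor signalling and is itself induced by interferon, fell from 38.92 ± 2.05 to 28.76 ± 0.906 CPM (-0.44, adjusted p = 0.000172).

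Among well counted genes that were not called, the kinase gene JAK1 had a log2 fold change of -0.05 (95% interval -0.12 to 0.03) and the transcription factor gene IRF1 one of -0.04 (-0.16 to 0.07). Ligand transcripts were scarce: IFNB1 had 11 and IFNL1 8 counts over the 6 libraries, and IFNG 0, as did the receptor chain gene IFNLR1. The fall of APOL1 and APOL2 thus stood beside lower IFNGR2, IFNAR1 and USP18 and higher SOCS1. Whether these are related was not tested.

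Guanylate-binding proteins and other interferon-gamma targets share inducers with the APOL genes. Of 13 tested genes of 16 listed, 7 were called lower and 0 higher, with a median of -0.18. Across the alternatives 5 to 7 were called. GBP1 had 78.56, 75.27 and 68.7 CPM in the controls and 42.73, 44.64 and 42.38 CPM in the knockdown. Its groups were well apart, and its log2 fold change of -0.78 (edgeR adjusted p = 9.3e-08, SE 0.0628) was close in size to that of APOL1. GBP4 fell from 18.9 ± 1.87 to 9.942 ± 1.34 CPM (-0.94, adjusted p = 1.2e-05), GBP3 from 33.94 ± 1.29 to 21.51 ± 2.02 CPM (-0.67, adjusted p = 9.04e-06), and TRIM22, an antiviral ubiquitin ligase, from 182.2 ± 5.55 to 148 ± 2.52 CPM (-0.3, adjusted p = 6.3e-05). Other members of the list did not pass: the log2 fold change of WARS1, the tryptophan-tRNA synthetase, was 0.04 (95% interval -0.05 to 0.13), that of IFI35 -0.13 (-0.24 to -0.02) and that of GBP2 -0.01 (-0.2 to 0.17). The GBP genes thus differed among themselves, with GBP2 near 0.

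TNF and double-stranded RNA are the other known inducers of APOL1. Of 14 tested genes of 15 listed, 1 was called higher, 3 lower and 10 not, with a median of -0.08. TNFRSF1A, the main TNF receptor, went from 398.7 ± 1.73 to 445.8 ± 6.89 CPM (0.16, edgeR adjusted p = 0.00299), and NFKB2, a subunit of NF-kappaB, from 254.7 ± 18.7 to 208.2 ± 4.61 CPM (-0.29, adjusted p = 0.000329). TLR3 went from 55.01 ± 2.74 to 46.76 ± 2.97 CPM (-0.24, adjusted p = 0.0121), a call lost without control replicate 3 or knockdown replicate 2 (adjusted p = 0.0504 and 0.0753). TNFRSF1B was scarce, at 1.563 ± 0.403 and 0.6359 ± 0.0328 CPM (-1.27, adjusted p = 0.0116), and its call was lost without control replicate 2 (-1.09, adjusted p = 0.0561). NFKB1 (-0.07, 95% interval -0.18 to 0.05), TRAF2 (-0.1, -0.23 to 0.03) and RELA (-0.06, -0.22 to 0.09) were not called. RELA passed without control and knockdown replicates 2 together (-0.19, adjusted p = 0.0274). TNF is listed at 0, but it lies in a stretch of chromosome 6 (29 to 34 Mb) with few counts, where 94.5% of 182 coding genes stayed below 100 in all against 40.1% elsewhere on that chromosome, so it is not shown to be silent.

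The Golgi list holds genes whose proteins have been reported to work with APOL3 or APOL1 at membranes. Of 11 tested genes of 12 listed, 6 were called higher, 1 lower and 4 not, with a median of 0.16. Without knockdown replicate 1 only 4 were called, 3 higher and 1 lower. NCS1, a calcium sensor that activates PI4KB and has been reported to bind APOL3, had 175.6, 165.4 and 170 CPM in the controls and 352.5, 351.5 and 354.4 CPM in the knockdown. The libraries of each group lay close together, and the log2 fold change was 1.05 (SE 0.0408, edgeR adjusted p = 5.44e-11).

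PI4KB, the kinase that makes phosphatidylinositol 4-phosphate at the Golgi, rose from 92.09 ± 3.04 to 132.5 ± 5.13 CPM (0.52, edgeR adjusted p = 5.52e-07), and ARF1, the GTPase that recruits it, from 414.2 ± 20.7 to 672.8 ± 16.1 CPM (0.7, adjusted p = 2.04e-09). MYH9 is the gene called lower. ACBD3, the Golgi adaptor of PI4KB, stood at 0.08 (95% interval -0.02 to 0.18) and passed without control replicate 2 (0.12, adjusted p = 0.0328). The lipid transfer protein gene PITPNB stood at -0.06 (-0.17 to 0.04) and MYH10 at -0.14 (-0.27 to 0). APOL3 itself, with an interval of -0.1 to 0.31, did not pass beside NCS1, PI4KB and ARF1.

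**Figure D5:**
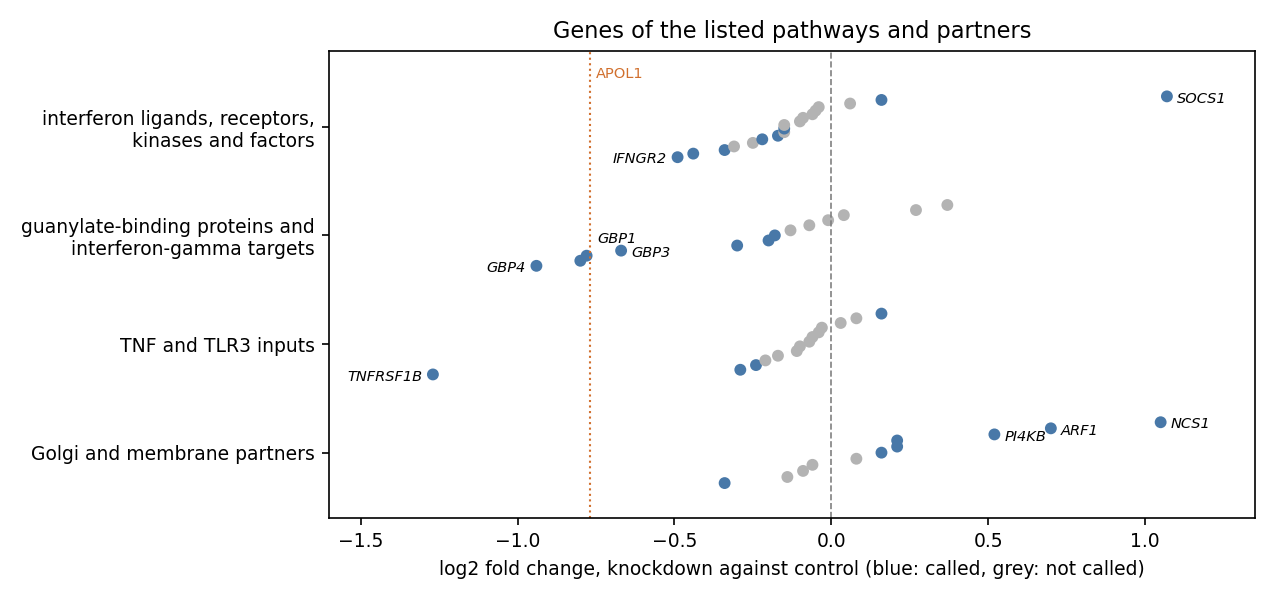
Log2 fold change, knockdown against control, of each tested gene in 4 lists (points; blue where called, grey where not), spread vertically for legibility within a list. The dotted line marks APOL1 at -0.77, with GBP1 (-0.78) beside it, and SOCS1 (1.07) and NCS1 (1.05) are the points farthest to the right.

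Other apolipoproteins and genes of high-density lipoprotein, the particle that carries APOL1 in blood, were mostly too scarce to test. Of 20 listed, 8 were tested, 1 was called higher, 1 lower and 6 not, with a median of -0.16. CLU (clusterin, apolipoprotein J) had 123.8, 125.3 and 128 CPM in the controls and 179.2, 172.8 and 173.6 CPM in the knockdown, a rise of 0.48 (SE 0.0437, edgeR adjusted p = 3.71e-07). It thus moved against APOL1. ABCA1, which loads lipid onto apolipoprotein A1, fell from 200.3 ± 4.83 to 168.1 ± 6.59 CPM (-0.25, adjusted p = 0.000437). The HDL receptor gene SCARB1 (0.12, 95% interval 0.02 to 0.22) and APOE (-0.29, -1.15 to 0.58) did not pass. Under a minimum mean of 5 CPM, SCARB1 did (0.13, edgeR adjusted p = 0.041). LCAT, which esterifies cholesterol on HDL, stood at -0.38 (-0.81 to 0.04), and passed without control replicate 2 (-0.56, adjusted p = 0.0208) or knockdown replicate 1 (-0.62, adjusted p = 0.0402). APOA1 had 1 count, and APOA2, APOB, APOC3 and HPR, the partner of APOL1 in the trypanosome lytic factor, were listed at 0. APOM, also at 0, lies in the sparsely counted stretch of chromosome 6.

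A further list held mitochondrial, ubiquitin-like and other partners, reported for APOL1 in studies of its toxicity. Its ubiquitin-like gene, UBD, was not tested. Of 9 tested genes of 10 listed, 2 were called higher, 1 lower and 6 not, with a median of 0.01. VDAC1, a channel of the outer mitochondrial membrane, rose from 358.9 ± 12.4 to 457.3 ± 17.6 CPM (0.35, edgeR adjusted p = 8.01e-06), and BNIP3, a mitophagy receptor, from 90.45 ± 3.66 to 110.5 ± 6.4 CPM (0.29, adjusted p = 0.00071). PLAUR, the urokinase receptor, fell from 53.25 ± 1.29 to 41.96 ± 2.46 CPM (-0.35, adjusted p = 0.000572). It is the gene called lower, and it is neither mitochondrial nor ubiquitin-like. TSPO (0.03, 95% interval -0.06 to 0.11), PPIF (0, -0.13 to 0.13) and PHB2 (-0.05, -0.14 to 0.03) were not called.

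Genes of the lysosome and of lytic cell death, settings in which APOL proteins act on membranes, gave 2 called higher, 5 lower and 4 not among 11 tested of 14 listed, with a median of -0.09. CTSD, a lysosomal protease, fell from 1905 ± 68.2 to 1582 ± 35.5 CPM (-0.27, edgeR adjusted p = 1.43e-05), while LAMP2, a lysosomal membrane protein, rose from 387.9 ± 20.2 to 490 ± 15 CPM (0.34, adjusted p = 1.76e-05). LAMP1 (0.1, 95% interval 0.01 to 0.19), IL18 (-0.04, -0.21 to 0.13) and CASP4 (-0.05, -0.21 to 0.1) did not pass.

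For 2 called genes of that list the controls disagreed among themselves. VAMP7, a vesicle SNARE, had 1.986, 15.13 and 20.48 CPM in the controls and 1.394, 1.248 and 1.263 CPM in the knockdown, and GSDMD, the pore former of pyroptosis, had 16.36, 1.535 and 7.948 against 1.603, 1.68 and 2.152 CPM. For GSDMD the groups overlapped. Their log2 fold changes of -3.27 and -2.26 (edgeR adjusted p = 0.000253 and 0.00239) rest on 2 of the 3 controls. With limma-voom GSDMD did not pass (-1.82, adjusted p = 0.055). VAMP7 lies in a region that chromosomes X and Y share, which can split or drop its reads, so its counts are uncertain. Whether this bears on the spread among its controls was not tested. No tested APOL member showed such a spread among its controls.

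The genes whose values over the 6 libraries ran closest to those of each member were sought among 11000 candidates with a mean of at least 5 CPM, by the root mean square difference of centred log2(CPM + 1) values. For APOL1, genes among the 6 nearest were OAS2 (0.0244), OAS3 (0.0277), VCAM1 (0.0319), MX1 (0.0352) and PGBD5 (0.0352). OAS2 and OAS3 make the 2-5A messenger of the antiviral response, MX1 is an antiviral GTPase and VCAM1 an adhesion molecule. OAS2 had 441.4, 447.3 and 454.9 CPM in the controls and 265.5, 270.3 and 259.2 CPM in the knockdown. VCAM1 went from 367.7 ± 17.1 to 221.4 ± 3.88 CPM. With 6 libraries in 2 groups, such nearness mostly says that the fold changes are alike.

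For APOL2 the nearest were CYTH1 (0.018), TSC22D2 (0.0185) and DCAF7 (0.0271). For APOL6 they were YARS1, the tyrosine-tRNA synthetase (0.00853), MMGT1 (0.0111) and PREB (0.0144). For APOL3 they were RNF207 (0.04), TBKBP1 (0.0417) and INO80C (0.0432), farther off than for the other members.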

How the data were processed

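RNA of A498 cells was sequenced in 6 libraries, 3 of PTPRZ_nc and 3 of PTPRZ_Si, grouped by the sample titles. The deposited values are raw counts of read pairs for each gene. Per the file headers, the authors ran featureCounts 2.0.1 on paired reads, summing exons to genes of Ensembl release 107 (GRCh38), with no strand option and without counting pairs placed more than once. The submitters' processing notes name hg38; the sources used here do not give an aligner version. Read pairs that fit several genes equally are left out by default, so near-identical genes may be under-counted.

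Of 61860 genes, 42054 took a symbol from a gene name table and 16371 from GENCODE 29. Genes were filtered with filterByExpr of edgeR 4.0.16 in R 4.3.3, which kept 15476 genes holding 99.82% of all counts. TMM scaled the libraries (factors 0.9936 to 1.009), and the quasi-likelihood test (glmQLFit, glmQLFTest, 2-sided) compared the groups. P-values were adjusted by Benjamini-Hochberg over all tested genes, and genes at 0.05 or below were called. CPM values are TMM scaled. TPM used exon lengths of GENCODE 29 or, as an alternative, its coding lengths. Limits for a count of 0 were 3 counts, or 0.14 to 0.219 CPM per library, and cover counting error only. The fits were tested on simulated data. Within each group, every pair of libraries had a chi-square over counts of 2.19 to 6.23 per degree of freedom, above sampling noise, so each was counted as 1 sample.

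The members, the 9 gene lists and the naming rule were chosen with earlier results of these data known. The rule names the family, PTPRZ1, RNF26 and the listed chromosome 22 neighbours, then in each other list at most 4 called genes with the smallest p and at most 3 not called with the highest mean, and the 6 genes nearest in profile to APOL1 and the 3 nearest to each other tested member. A few genes within this rule are left out of the text. Alternatives were RLE size factors, other filters, DESeq2 1.42.0, limma-voom 3.58.1, a replicate block and leaving out each library. Leaving out both libraries numbered 2 was added after seeing the data.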

Additional observations from a re-analysis of the deposited data

How the results depend on the processing

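APOL1 and APOL2 were called lower in all 13 alternatives, with log2 fold changes of -0.79 to -0.76 and -0.56 to -0.48, and APOL3 was called in none (0.02 to 0.21). The number of called members was 2, or 3 with APOL6 under a minimum mean of 5 CPM, limma-voom, without control replicate 2, and without both libraries numbered 2 (adjusted p = 0.0267, 0.0454, 0.0128 and 0.014). Genes called in all numbered 4243, and leaving out 1 library gave 3182 to 4425. DESeq2 called 3489. With the replicate number as a block 4101 genes and 2 members were called. Deviations of same-numbered libraries correlated only weakly (0.02, 0.044 and 0.005), against -0.035 to 0.014 between different numbers. Of 6 libraries, 4 correlated best with their own number. These values do not settle whether the numbers mark pairs. No label says so, and the numbers were not taken as pairs. Of the other tested genes that were named or listed, the 54 called gave 699 pairs of a gene and an alternative, and the call was lost in 76 of them. The 57 not called gave 726 pairs, and 18 of them passed. None changed sign while called. For genes of few counts, such as APOL4 and the interferon ligands, the depth allows no comparison.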
